A study of Mus musculus with 6 samples.

Results

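ATF4 and the genes of the amino acid stress response were followed in LSKs, the mouse BM fraction that lacks lineage markers, carries Sca1 and c-Kit and contains HSPCs. The set held 10 genes: the transcription factors *Atf4*, *Atf5* and *Ddit3*, the biosynthetic enzymes *Asns*, *Phgdh*, *Psat1* and *Shmt2*, and the stress effectors *Sesn2*, *Trib3* and *Chac1*. They were taken by name from the 54532 genes of the RNA-seq table, in which they fill 11 rows, because a second entry named *Ddit3* of 105 bases was listed at 0 in all 6 libraries. The genes were chosen by their function with FPKM values of the same comparison already known, so the difference of these 10 genes between groups is described here and not tested.

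Both groups were C57BL/6 mice with floxed *Myh9*, the gene of the heavy chain of non-muscle myosin IIA. Controls were Myh9fl/fl;no cre littermates (CTRL, 3 libraries), and the *Myh9*-deficient group was Myh9fl/fl;Mx1-cre (cKO, 3 libraries). All mice, controls included, were genotyped at 4 to 5 weeks of age and received poly I:C at 5 mg/kg every other day, in 2 doses by the sample descriptions and in 3 by the study's methods, which place the first injection at 5 to 6 weeks. Each library came from 100000 LSKs sorted at d4 after the first injection. The Mx1 promoter that drives Cre responds to interferon, which poly I:C induces, and it is active in many tissues besides blood. The number of mice behind each library was not given, so the spread between libraries may be in part technical.

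ATF4 is a bZIP transcription factor at the centre of the integrated stress response. When 1 of 4 kinases phosphorylates eIF2α, for example GCN2 upon lack of an amino acid or PERK upon stress in the endoplasmic reticulum, general translation slows while the *Atf4* mRNA is translated more, so the amount of ATF4 protein need not follow that of its mRNA. ATF4 then binds C/EBP-ATF composite elements and activates genes for amino acid synthesis, amino acid uptake and tRNA charging. In HSCs, whose protein synthesis is kept low, this pathway is known for its part in the decision between survival and death under stress. Only mRNA was measured here.

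Since these composite elements link ATF4 to its targets, the promoters of the 10 genes were searched for the core of the element, TGATGNAA, on both strands. RefSeq promoters of GRCm38.p6, from 250 bases before to 50 bases after each start site, were matched for 10 of the 10 genes in 12 windows, and 3 windows held the core. The same core was in 3.97% of all 32851 mouse promoter windows and in 2.11% of the 10357 windows of genes tested here. The 3 windows are shown because *Asns* is the gene with the largest difference between groups and *Chac1* and *Trib3* are those with the lowest expression. Each is printed 5′ to 3′ in the direction of the gene, with the core in capitals: *Asns*, chr6:7693160-7693459, minus strand; *Chac1*, chr2:119350992-119351291, plus strand; *Trib3*, chr2:152344011-152344310, minus strand.
Asns: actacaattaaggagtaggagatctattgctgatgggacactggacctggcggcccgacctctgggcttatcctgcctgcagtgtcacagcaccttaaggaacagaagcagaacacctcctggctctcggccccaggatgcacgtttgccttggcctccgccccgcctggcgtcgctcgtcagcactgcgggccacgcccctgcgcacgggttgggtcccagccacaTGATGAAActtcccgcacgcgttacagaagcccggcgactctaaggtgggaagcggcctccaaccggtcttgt
Chac1: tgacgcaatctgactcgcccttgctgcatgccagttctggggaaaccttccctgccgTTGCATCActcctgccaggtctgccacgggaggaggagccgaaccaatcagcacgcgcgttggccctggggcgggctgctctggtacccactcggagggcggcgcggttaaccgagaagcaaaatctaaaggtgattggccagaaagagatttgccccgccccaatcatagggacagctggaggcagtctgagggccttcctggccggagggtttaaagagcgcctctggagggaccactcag
Trib3: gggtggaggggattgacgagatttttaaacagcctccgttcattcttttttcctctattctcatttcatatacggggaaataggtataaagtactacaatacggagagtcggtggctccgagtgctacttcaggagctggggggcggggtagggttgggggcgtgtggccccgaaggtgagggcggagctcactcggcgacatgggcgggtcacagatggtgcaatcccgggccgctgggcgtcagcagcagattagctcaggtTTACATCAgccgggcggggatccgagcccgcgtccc
In *Asns* the core read TGATGAAA on the strand of the gene and began at position -23 from the start site. In *Chac1* it lay on the opposite strand, read here as TTGCATCA, and began at position -193. In *Trib3* it also lay on the opposite strand, as TTACATCA, and began at position 15 after the start. The cyclic AMP response element TGACGTCA (1.79% of all windows and 3.12% of those of tested genes) and the ER stress response element, CCAAT and CCACG with 9 bases between them (0.119% and 0.135%), were in none of the 12 windows. A match is a description of the letters in this window and not a binding site.

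The values are FPKM, fragments scaled to gene length and library size, as deposited, and the reads behind them could be recovered. Between 17571544 and 19894562 reads fell on genes in a library, at which 3 reads correspond to 0.151 to 0.17 FPKM for a gene of 1 kb. Libraries of 1 group correlated with r of 0.991 to 0.993 across genes and those of different groups with 0.974 to 0.977. The 11552 genes that averaged 1 FPKM or more over the libraries were tested with limma on log2(FPKM + 1) and Benjamini-Hochberg adjustment. At an adjusted p under 0.05, 40.5% of these were called in *Myh9*-deficient LSKs, 19.9% as higher and 20.6% as lower. The ranges of the groups were separate for 54.0% of these genes, with all cKO libraries above for 25.5% and all below for 28.5%. *Myh9* itself averaged 22.5 ± 0.495 FPKM in control and 18.7 ± 1.18 FPKM in cKO libraries (SD, n = 3), and all cKO libraries were below all controls (log2 fold change -0.26 ± 0.049 SE, adjusted p = 0.00642 by limma). This value covers the whole gene and does not measure recombination of the floxed segment.

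Of the LSK markers, *Kit* (23.9 ± 0.454 FPKM in control, mean ± SD, n = 3), *Ly6a* (95.4 ± 1.87) and *Cd34* (63.8 ± 0.557) were expressed in every library, and of 10 tested LSK markers 4 were higher in cKO libraries and 1, *Kit*, was lower, a call lost with length and GC trends removed (adjusted p = 0.128). Markers of other cells differed between the groups. The summed level of neutrophil and monocyte markers, including *Elane* and *Mpo*, went from 11159.5 to 11195 FPKM in control libraries to 6181 to 6287 FPKM in cKO libraries, with 13 of 14 tested genes lower. All 11 tested erythroid markers were higher (sum 573 to 579 against 1017 to 1057 FPKM), as were all 6 tested megakaryocyte markers (65.3 to 69.4 against 138 to 143 FPKM). Of 8 mast cell and basophil markers 6 were higher (112 to 125 against 182 to 191 FPKM). Of 11 B and plasma cell markers 6 were higher and 3 lower (654 to 672 against 1039 to 1149 FPKM), while *Ms4a1* stayed below the limit of 1 FPKM. The rise of this sum was carried by *Igkc* (421 ± 6.89 against 880.3 ± 57.8 FPKM), without which the list summed to 239 to 244 FPKM in control and 226 to 231 FPKM in cKO libraries. The other genes of that sum moved both ways, as in *Jchain* (30.4 against 64.0 FPKM) and *Ighm* (100.2 against 59.0 FPKM). Of T and NK cell markers, 10 of 14 stayed below that limit, but in 8 of these 10 all cKO libraries were above all controls, as in *Cd3e* with 0 reads in each control and 14, 21 and 18 reads in cKO libraries. Of the other 4, 2 were higher and 1, *Nkg7*, lower. The sum of this list (367 to 378 against 331 to 335 FPKM) was mostly *Nkg7*, and without it was 16.0 to 19.0 FPKM in control and 52.8 to 54.9 FPKM in cKO libraries. In a bulk sample, a lower share of one cell type and less RNA per cell cannot be told apart, and the part of these cell types in the differences described next was not tested.

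The transcription factors showed no common shift. *Atf4* (ENSMUSG00000042406, chr15:80255184-80257541) was at 114, 111 and 118 FPKM in control libraries 1 to 3 and at 121, 109 and 114 FPKM in cKO libraries 1 to 3. The groups overlapped, and both means were 115 FPKM, with an SD of 3.28 in control and 6.11 in *Myh9*-deficient LSKs (n = 3 each). The log2 fold change was 0.0029 with an SE of 0.044, on 4627 to 5365 reads a library. *Atf4* ranked 524 of the genes tested by mean FPKM, which places it among the abundant mRNAs of LSKs.

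*Atf5* (ENSMUSG00000038539, chr7:44812256-44816658), a paralog of *Atf4* under the same translational control, was at 7.27, 7.2 and 6.8 FPKM in control and 6.13, 6.88 and 7.04 FPKM in cKO libraries. The groups overlapped, with a log2 fold change of -0.076 ± 0.058 (SE). *Atf5* shares 82 exon bases with *Nup62* on the other strand, which was at 58.3 to 70.9 FPKM, and since the counting was not stated to use strand, reads of that stretch cannot be told apart.

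*Ddit3* (ENSMUSG00000025408, chr10:127290774-127296288) encodes CHOP, the ATF4-induced factor that promotes apoptosis under lasting stress. It was at 13.0, 14.4 and 13.3 FPKM in control libraries. In cKO libraries it was at 13.3, 10.4 and 10.8 FPKM, so that cKO library 1 lay within the control range and the other two below it. The means were 13.6 ± 0.731 and 11.5 ± 1.58 FPKM (SD, n = 3), a log2 fold change of -0.23 ± 0.09 (SE). Without cKO library 1 the log2 fold change was -0.33, and *Ddit3* then counted as lower at an adjusted p under 0.05. *Ddit3* shares 68 exon bases with *Mars* on the other strand (31.2 to 38.0 FPKM), with the same limit.

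The largest difference was that of *Asns* (ENSMUSG00000029752, chr6:7675169-7693254), asparagine synthetase, which makes asparagine from aspartate and glutamine. Control libraries had 9.69, 9.46 and 9.68 FPKM and cKO libraries 19.4, 19.5 and 18.3 FPKM. All cKO libraries were far above all controls, and neither group spread widely. The means of 9.61 ± 0.129 and 19.1 ± 0.648 FPKM (SD, n = 3) differ by a ratio of 1.98, and the log2 fold change was 0.92 ± 0.037 (SE). The recovered reads were 456 to 527 in control and 932 to 992 in cKO libraries.

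The enzymes of the serine and glycine pathway were far more abundant and differed much less. *Phgdh* (ENSMUSG00000053398, chr3:98313170-98339990) catalyses the first step of serine synthesis from a glycolytic intermediate. Its level was 204, 210 and 211 FPKM in control and 233, 236 and 228 FPKM in cKO libraries, which do not overlap. The mean was 11.7% higher in *Myh9*-deficient LSKs (208 ± 3.98 against 232 ± 4.25 FPKM, SD, n = 3), with a log2 fold change of 0.16 ± 0.026 (SE). Both pseudogenes of *Phgdh* in the table were listed at 0.

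*Psat1* (ENSMUSG00000024640, chr19:15904678-15947337), the aminotransferase of the next step, was at 43.2, 43.1 and 44.0 FPKM in control and 48.2, 50.1 and 51.5 FPKM in cKO libraries. The groups did not overlap, and the mean was 14.9% higher (log2 fold change 0.20 ± 0.032 SE). *Shmt2* (ENSMUSG00000025403, chr10:127517123-127522444), the mitochondrial enzyme that splits serine into glycine and a one-carbon unit, was at 97.0, 93.6 and 93.6 FPKM in control and 103, 105 and 101 FPKM in cKO libraries. The groups were again separate, by a mean difference of 8.62% (log2 fold change 0.12 ± 0.028 SE). *Shmt2* lies 221 kb from *Ddit3* on chromosome 10.

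*Sesn2* (ENSMUSG00000028893, chr4:132492032-132510501) encodes a leucine-binding sestrin that restrains mTORC1 through the GATOR complexes. Control libraries had 3.10, 2.42 and 2.55 FPKM and cKO libraries 3.86, 3.12 and 3.39 FPKM. The cKO libraries were all above the controls, but cKO library 2 exceeded control library 1 only in the second decimal. The mean was 28.6% higher with a log2 fold change of 0.27 ± 0.094 (SE), and each value rested on 148 to 251 reads.

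*Trib3* and *Chac1* were at the lower edge of detection. *Trib3* (ENSMUSG00000032715, chr2:152337422-152344032), a pseudokinase that feeds back on ATF4 and on AKT, had 35, 18 and 17 reads in control and 34, 23 and 23 reads in cKO libraries, or 0.417 to 0.828 and 0.582 to 0.854 FPKM. *Chac1* (ENSMUSG00000027313, chr2:119351229-119354381), which degrades glutathione and is induced downstream of ATF4 and CHOP, had 25, 8 and 19 reads in control and 28, 11 and 21 reads in cKO libraries, or 0.277 to 0.768 and 0.369 to 0.913 FPKM. Both fell below the limit of 1 FPKM, the groups overlapped for both, and a difference of the size seen for the serine enzymes was not detectable at these read numbers.

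**Figure D1:**
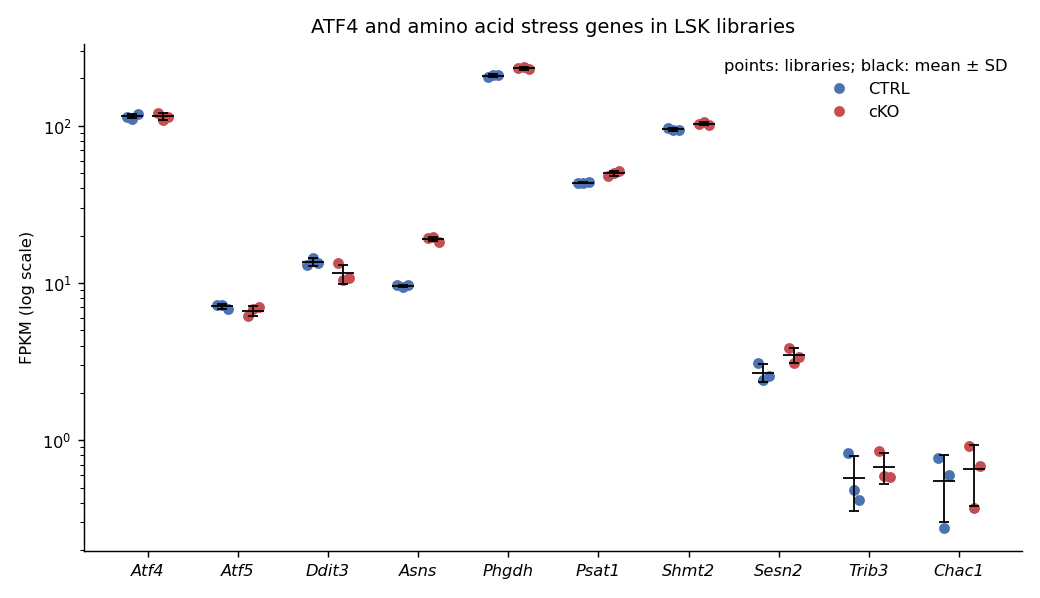
FPKM (log scale) of the 10 genes in the 3 control (blue) and 3 cKO (red) libraries, 1 point a library, with the mean ± SD in black. The cKO points of *Asns* (18.3 to 19.5) lie well above its control points (9.46 to 9.69), those of *Atf4* overlap, and *Trib3* and *Chac1* lie below 1 FPKM.

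Of the 10 genes, 8 passed the limit of 1 FPKM. At an adjusted p under 0.05, 4 of these 8 were called higher, namely the 4 enzymes *Asns*, *Psat1*, *Phgdh* and *Shmt2*, and 0 lower, where 19.9% and 20.6% of all genes tested were called. All cKO libraries were above all controls for 5 of the 8, the enzymes and *Sesn2*, beside 25.5% of all genes tested with all cKO above and 54.0% with no overlap in either direction. The groups overlapped for the 3 transcription factors. The median log2 fold change of the 8 was 0.14, beside -0.0096 over all genes tested. The limits of the study, more than 2-fold with an unadjusted p under 0.05, were applied to the limma fit on log2(FPKM + 1). Of all genes tested 2.13% passed, and 0 of the 8 were called. On that scale *Asns* was at 0.92, and with voom on recovered reads at 1.01, so this 0 depends on the scale. The study's own fit was not repeated. These counts come from the comparison in view when the genes were chosen and are given as a description.

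Per length, the order of levels in control LSKs ran from *Phgdh* through *Atf4*, *Shmt2*, *Psat1*, *Ddit3*, *Asns*, *Atf5* and *Sesn2* to *Trib3* and *Chac1*. Neighbours in this order had separate ranges over the 3 libraries, except *Trib3* and *Chac1*. The order in *Myh9*-deficient LSKs differed at 1 place, where *Asns* stood above *Ddit3*. *Ddit3* was 1.41 times *Asns* in control LSKs, and *Asns* was 1.66 times *Ddit3* in cKO LSKs, both as ratios of mean FPKM. The levels thus spanned from 0.55 FPKM (*Chac1*) to 208 FPKM (*Phgdh*) in control LSKs.

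The spread between replicates, which does not use the difference between groups, differed among the genes. Coefficients of variation of *Phgdh*, *Psat1*, *Shmt2* and *Asns* were 1.1% to 2.09% in control and 1.83% to 3.4% in cKO libraries. That of *Asns* in control (1.34%) was below its counting error of 4.49% and at the percentile 6 of the 500 tested genes of nearest mean. *Ddit3* varied by 5.38% in control and by 13.8% in cKO libraries, against a counting error of 5.24% in the latter, and stood at percentile 94.4 of its neighbours there. *Atf4* varied by 2.87% and 5.32% (percentiles 60.2 and 84.0), and *Sesn2* by 13.4% and 10.7%, against counting errors of 7.51% and 6.7%. *Atf5* varied by 3.59% in control and 7.21% in cKO libraries (percentiles 34.6 and 61.0), against counting errors of 6.12% and 6.37%. Control library 1 held the highest control value for 6 of the 10 genes and control library 2 the lowest for 6. Among cKO libraries, library 1 was highest for 5, *Atf4*, *Ddit3*, *Chac1*, *Trib3* and *Sesn2*.

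The rest of the pathway was read from 10 lists of related genes, 223 genes in all without the 10 above, of which 194 were tested. Among them, 65 were higher in *Myh9*-deficient LSKs and 58 were lower, or 33.5% and 29.9% beside 19.9% and 20.6% of all genes, and their median log2 fold change was 0.015. The adjusted p of single genes below are from limma over all genes tested. Lists named below with 0 genes in a direction also had 0 there at an unadjusted p under 0.05.

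Upstream of ATF4, genes of eIF2 signalling moved both ways, with 7 of 22 higher and 4 lower (7 lower when libraries were scaled to the same sum) and a median of -0.0082. Of the eIF2α kinases, *Eif2ak1* (HRI, activated by lack of haem) was at 12.9 ± 0.231 FPKM in control and fell to 10.9 ± 0.412 FPKM (-0.22 on the log2 scale, as all such values below; adjusted p = 0.00557). *Eif2ak3* (PERK) fell from 3.59 ± 0.317 to 2.71 ± 0.128 FPKM (-0.30, adjusted p = 0.0135), although without control library 1 its adjusted p was 0.0501. *Eif2ak2* (PKR, 5.86 against 5.25 FPKM, adjusted p = 0.148) and *Eif2ak4* (GCN2, 4.19 against 3.69 FPKM, adjusted p = 0.0742) did not pass. With libraries scaled to the same sum, *Eif2ak4* was called lower (adjusted p = 0.045 by limma). The largest fall of the list was *Ppp1r15a* (GADD34), the stress-induced subunit that directs the phosphatase to eIF2α. It was at 28.4, 28.8 and 29.5 FPKM in control and 16.0, 17.3 and 16.0 FPKM in cKO libraries (log2 fold change -0.78 ± 0.041 SE, adjusted p = 3.84e-05). The largest rises were in *Eif2b3* (0.37), *Eif2b1* (0.35) and *Eif2s2* (0.31, all log2 fold changes), subunits of eIF2B and eIF2.

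In a list of bZIP factors that pair with ATF4 or resemble it, 0 of 18 genes were higher and 11 lower (median -0.20). In this list 1 gene was higher when cKO library 3 was left out and with voom. The list also held *Cebpz*, which is not a bZIP factor despite its name and was not called. *Atf3*, a stress-induced repressor, had 14.9, 14.3 and 13.3 FPKM in control and 2.21, 1.76 and 1.82 FPKM in cKO libraries. Its means fell from 14.1 ± 0.82 to 1.93 ± 0.243 FPKM (-2.37 ± 0.074 SE, adjusted p = 4.96e-06). *Cebpb*, a dimer partner of ATF4, fell from 47.3 ± 7.09 to 27.7 ± 4.98 FPKM (-0.76, adjusted p = 0.00734), and *Cebpd* from 16.2 ± 0.893 to 9.31 ± 0.27 FPKM (-0.74, adjusted p = 8.68e-05). *Cebpg* was lower by less (8.77 against 7.43 FPKM, adjusted p = 0.0225) and lost its call in 4 of the 6 fits that left out 1 library. Of immediate early genes, which include *Atf3* and *Ppp1r15a*, 23 of 26 tested were lower and 0 higher (sum 1382 to 1403 against 829 to 837 FPKM). C/EBP factors are also known from granulocytes and monocytes, whose markers were lower as given above, and the part of either in these falls was not tested.

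**Figure D2:**
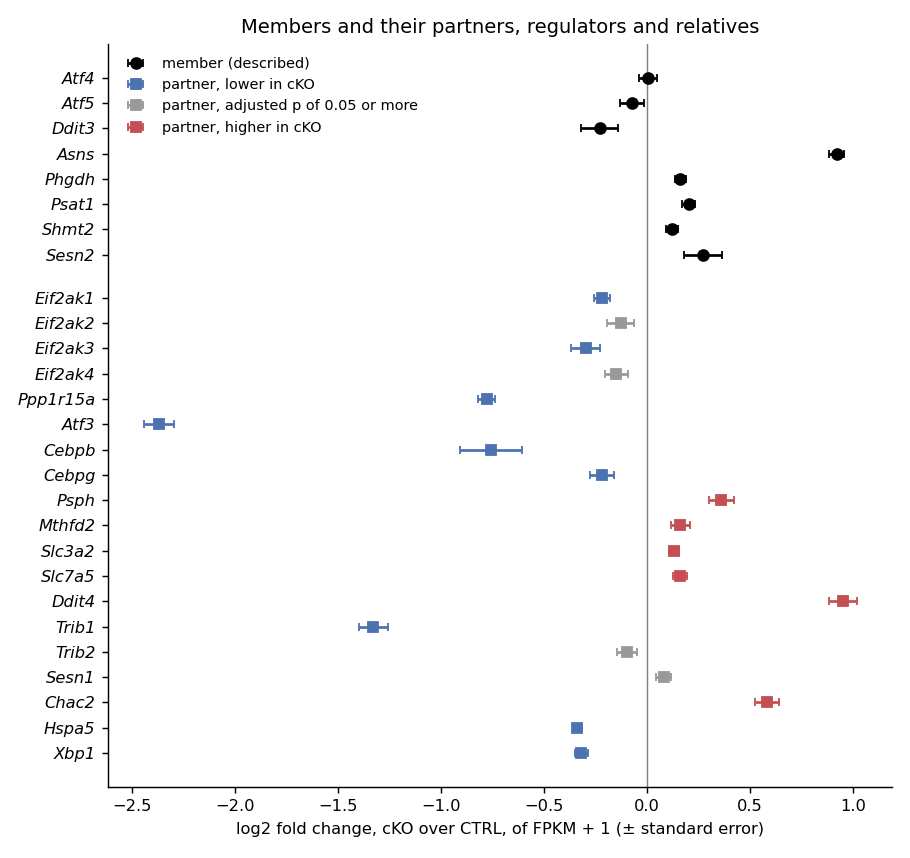
Log2 fold change (cKO over control, of FPKM + 1, ± SE, n = 3 libraries a group) of the 8 genes that passed the limit (black circles, described) and of named partners, regulators and relatives (squares, blue lower, red higher and grey not called at an adjusted p under 0.05). *Asns* (0.92) and *Ddit4* (0.95) lie farthest to the right and *Atf3* (-2.37) farthest to the left, while *Atf4* lies at 0.0029.

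Of 39 further target genes of ATF4 and CHOP that were tested, 19 were higher and 11 lower, and 13 more stayed below 1 FPKM. These counts include 12 aminoacyl-tRNA synthetase genes, of which 9 were higher and 0 lower, given again below. *Ddit4* (REDD1), an inhibitor of mTORC1, had 15.6 to 18.1 FPKM in control and 33.2, 36.0 and 31.8 FPKM in cKO libraries, a rise close to the difference of *Asns* in size (0.95 ± 0.067 SE, adjusted p = 1.13e-04). The neutral amino acid transporter gene *Slc1a4* was higher too, at 0.722 ± 0.0776 against 1.59 ± 0.30 FPKM (0.58, adjusted p = 0.00589). The stress regulator gene *Nupr1* went from 0.873 ± 0.281 to 1.70 ± 0.293 FPKM (0.53, adjusted p = 0.0197, lost in 4 of 6 fits that left out 1 library). The list also held the largest falls, *Atf3* and *Ppp1r15a* given above and *Trib1*, a relative of *Trib3* that directs C/EBPα to degradation. *Trib1* was at 3.21, 3.6 and 3.24 FPKM in control and 0.718, 0.676 and 0.783 FPKM in cKO libraries (log2 fold change -1.33 ± 0.07 SE, adjusted p = 3.60e-05). Its paralog *Trib2* was at 9.02 against 8.37 FPKM (adjusted p = 0.154). Among the targets below the limit were *Gdf15* (0.635 against 0.642 FPKM), *Vldlr*, *Stc2*, *Cth* and *Fgf21*, the last listed at 0 throughout.

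Genes for tRNA charging were mostly higher. Of 11 cytosolic aminoacyl-tRNA synthetases and their scaffold proteins not counted as ATF4 targets, 10 were higher and 0 lower (median 0.24), with a summed level of 407 to 420.1 FPKM in control against 481 to 484 FPKM in cKO libraries. The largest rises were in *Eef1e1* (0.41, adjusted p = 1.34e-04) and *Aimp2* (0.30, adjusted p = 0.00123), scaffold proteins of the multisynthetase complex, and in *Hars*, the histidyl-tRNA synthetase (0.33, adjusted p = 8.67e-04). Of 12 synthetases counted as ATF4 targets, 9 were higher, 0 lower and 3 not called, which were *Eprs* (0.0059, adjusted p = 0.917), *Wars* (0.033, adjusted p = 0.50) and *Lars* (0.11, adjusted p = 0.0613). Among the 9, *Cars* rose from 5.58 to 7.41 FPKM (0.35, adjusted p = 0.00196), *Gars* from 42.5 to 51.9 FPKM (0.28, adjusted p = 0.00124) and *Nars* from 65.8 to 76.2 FPKM (0.21, adjusted p = 0.00291), and these 6 were named after their values were seen. The asparaginyl-tRNA synthetase gene *Nars* thus differed less than *Asns*.

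In serine, glycine and one-carbon metabolism, 11 of 22 tested genes were higher and 2 lower (median 0.12, sum 439 to 452 against 492 to 503 FPKM). *Psph*, the last step of serine synthesis after *Phgdh* and *Psat1*, rose from 8.16 ± 0.312 to 10.7 ± 0.861 FPKM (by 0.36, adjusted p = 0.00483). *Sdsl*, a serine dehydratase-like enzyme, rose from 29.0 ± 1.64 to 44.8 ± 1.22 FPKM (0.61, adjusted p = 1.49e-04) and *Mat2a*, which makes S-adenosylmethionine, from 51.3 ± 2.68 to 65.5 ± 1.41 FPKM (0.35, adjusted p = 0.00113). *Mthfd2*, the mitochondrial enzyme that follows *Shmt2*, went from 11.2 to 12.6 FPKM (0.16, adjusted p = 0.0283) and lost its call in 5 of the 6 fits that left out 1 library. Left out in turn, control library 3 reduced the number lower to 1 and cKO library 2 raised it to 4. The falls were in *Aldh1l1* (-0.37, adjusted p = 0.0155, and 0.0516 without control library 3), which oxidises a folate-bound one-carbon unit, and *Mtr*, methionine synthase (-0.24, adjusted p = 0.00316).

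Enzymes around aspartate, glutamate, proline and branched-chain amino acids were mixed, with 6 of 18 higher and 4 lower (median 0.074). The number higher was 3 without control library 1 or cKO library 3 and 2 without control library 2. The aspartate aminotransferase gene *Got1* (0.24, adjusted p = 0.0204) was higher, but lost its call in 3 of the 6 fits that left out 1 library. *Ass1*, argininosuccinate synthetase, which consumes aspartate, fell from 62.9 ± 7.29 to 42.3 ± 1.6 FPKM (-0.55, adjusted p = 0.00211), and *Glud1*, glutamate dehydrogenase, from 62.8 ± 1.11 to 48.6 ± 1.01 FPKM (-0.36, adjusted p = 1.83e-04).

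Of 21 amino acid transporters tested, 8 were higher and 7 lower (median 0.056), with 5 higher when control library 1 or 3 was left out. *Slc7a5* and *Slc3a2*, the light and heavy chain of the leucine transporter LAT1, were both higher, from 32.9 ± 0.847 to 37.0 ± 1.05 FPKM (0.16, adjusted p = 0.0099) and from 51.9 ± 0.553 to 57.1 ± 0.891 FPKM (0.13, adjusted p = 0.00674, and 0.0537 under quantile normalization). *Slc7a8* (LAT2) rose from 4.06 ± 0.108 to 6.26 ± 0.511 FPKM (0.52, adjusted p = 0.001). *Slc36a1*, a lysosomal amino acid exporter, fell from 6.99 ± 0.39 to 4.39 ± 0.352 FPKM (-0.57, adjusted p = 8.76e-04), and *Slc38a7* (-0.47) and *Slc43a2* (-0.40) fell too (adjusted p = 0.00141 and 0.00597). *Slc7a11*, the cystine transporter that ATF4 induces, had only 4 to 10 reads a library.

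The glutathione genes, the pathway of *Chac1*, had 5 of 13 higher and 4 lower (median 0.062). *Chac2*, the constitutive relative of *Chac1*, had 3.82, 3.71 and 3.76 FPKM in control and 5.85, 5.92 and 6.66 FPKM in cKO libraries (0.58 ± 0.057 SE, adjusted p = 4.60e-04). *Gsr*, glutathione reductase, fell from 78.6 ± 2.2 to 54.2 ± 1.47 FPKM (-0.53, adjusted p = 7.21e-05). Around *Sesn2*, 5 of 24 tested genes of sestrins, GATOR, Rag GTPases and Ragulator were higher and 3 lower (median 0.019), with 3 higher without control library 3 and 1 lower without cKO library 1. *Sesn1* was at 13.9 against 14.7 FPKM (0.079, adjusted p = 0.135), and *Sesn3* lay below 1 FPKM (0.78 against 0.743). *Rragb* (0.31, adjusted p = 0.00445) and *Rraga* (0.29, adjusted p = 0.00869), the Rag GTPases that bring mTORC1 to the lysosome, were higher, and *Fnip1*, of the folliculin complex, was lower (-0.36, adjusted p = 0.00562).

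Genes of the other arms of the unfolded protein response were mostly lower. Of 22 tested genes controlled by ATF6 and XBP1 or belonging to these arms, 19 were lower and 1 higher (median -0.31, sum 2478 to 2539.9 against 1994 to 2026 FPKM). *Hspa5* (BiP), the main chaperone of the endoplasmic reticulum, fell from 219, 222 and 225 to 177, 174 and 174 FPKM (-0.34 ± 0.022 SE, adjusted p = 8.69e-05). *Ern1* (IRE1α), the sensor that splices *Xbp1*, fell from 9.13 ± 0.268 to 5.24 ± 0.0436 FPKM (-0.70, adjusted p = 5.08e-05), and *Xbp1* from 63.2 ± 0.342 to 50.6 ± 1.65 FPKM (-0.32, adjusted p = 4.33e-04). The cochaperone gene *Dnajb9* (-0.65, adjusted p = 2.86e-05) and the disulfide isomerase gene *Pdia4* (-0.59, adjusted p = 2.92e-05) fell most after *Ern1*. The gene that rose was *Derl3* (1.10 ± 0.0222 against 2.05 ± 0.343 FPKM, 0.54, adjusted p = 0.00495), which is also a plasma cell gene. Cells with much secretory protein, such as the neutrophil progenitors whose markers were lower, also express this list, and their part in its fall was not tested.

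**Figure D3:**
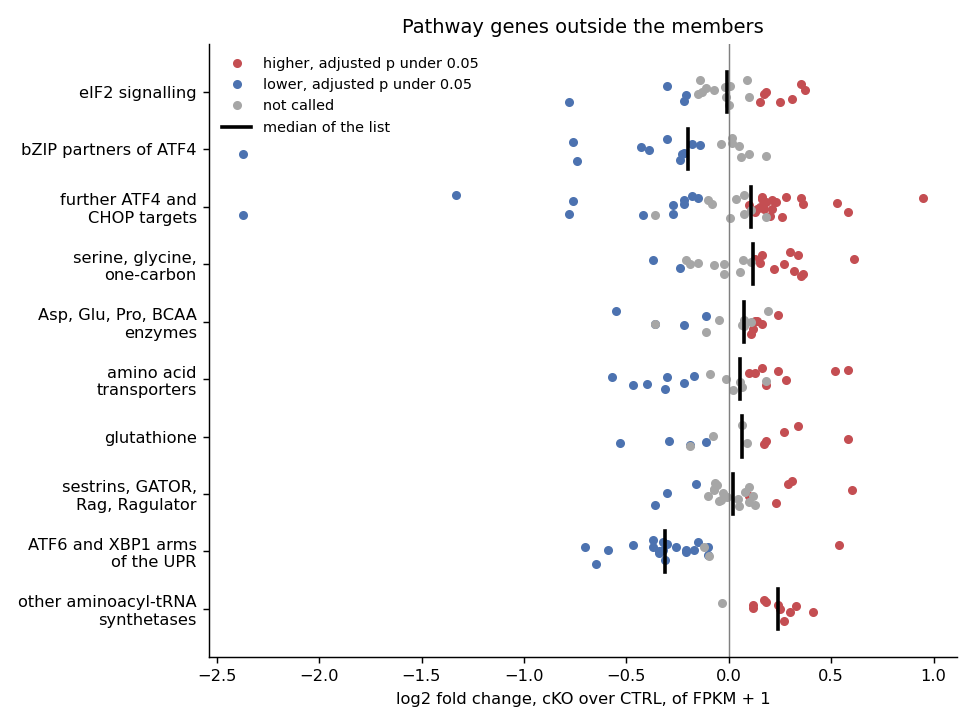
Log2 fold change (cKO over control, of FPKM + 1) of each tested gene in the 10 lists, 1 point a gene, red higher and blue lower at an adjusted p under 0.05, grey not called, with the median of each list as a black line. The synthetase list lies to the right (median 0.24) and the ATF6 and XBP1 list to the left (median -0.31), and a gene in 2 lists is drawn in both.

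**Figure D4:**
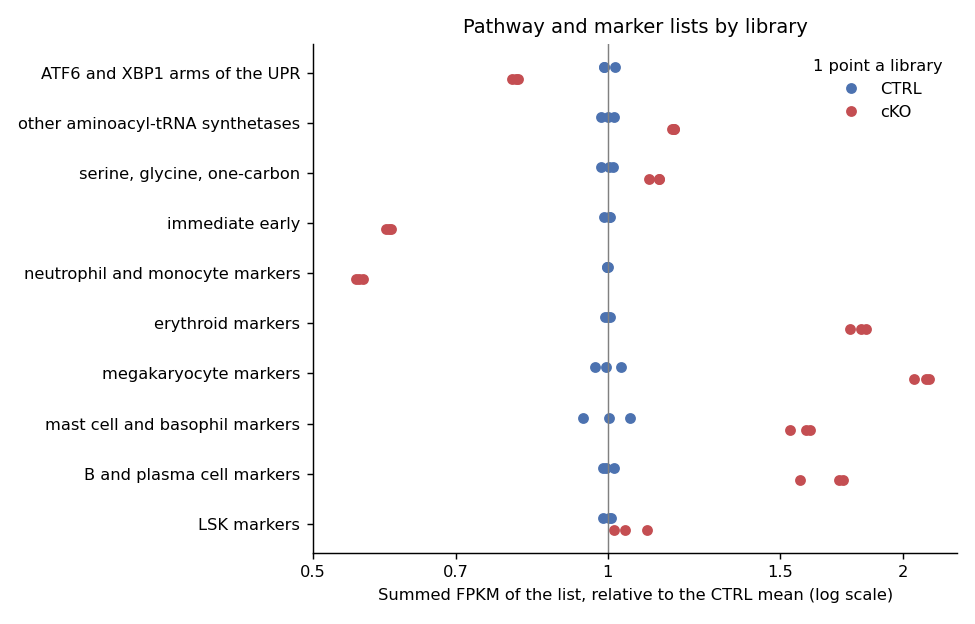
Summed FPKM of 10 pathway, response and marker lists in each library, divided by the mean of the 3 control libraries (log scale, blue control, red cKO). The cKO points of the synthetase and one-carbon lists lie above 1 and those of the ATF6 and XBP1 list below 1, all nearer to 1 than the neutrophil and monocyte, erythroid and megakaryocyte markers.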

How the data were processed

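RNA-seq of 3 control and 3 cKO LSK libraries was compared. The libraries were made from total RNA with a TruSeq RNA kit that does not mark strand. According to the submitters' processing notes the reads were aligned with HISAT2 2.0.5 to mm10. The counting program and annotation are not given in the sources used here. The authors deposited FPKM values in 6 columns named for the libraries, together with gene lengths. GENCODE M21 (GRCm38) holds the identifiers of 54409 of the 54532 genes, and start and end were the same for 53499.

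Products of FPKM and gene length came in whole steps of 1 read (100% of values within 0.01 read), which gave the recovered reads. Intervals and limits from reads cover counting error only. Genes averaging 1 FPKM or more were fitted with limma 3.58.1 (R 4.3.3; lmFit, eBayes with trend) on log2(FPKM + 1), with two-sided p-values adjusted by Benjamini-Hochberg over all 11552 genes tested. Fold changes are on this scale and understate changes of low genes. On simulated counts with the library sizes of this comparison (11561 genes), every gene had the same spread beyond counting error. Only 49 or 50 genes were changed at each step, whereas 40.5% of genes were called in the real data. The test called 98.0% of genes changed by a log2 of 1, and 72.0% and 63.3% of those changed by 0.5 and -0.5. It called 0.123% of 11362 unchanged genes. These rates describe that setting and not the power or the false calls of the real comparison. The values were handled with data.table (version 1.17.8), Python 3.11.15, pandas 2.3.3 and numpy 2.4.6, and figures with matplotlib 3.10.9.

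The 10 genes, the lists and the motifs were chosen with earlier results of these data known. Genes named by rule were the 10, *Myh9* and a set of known partners and paralogs whatever their change. From each list came at most 3 genes in each direction, with the largest change among those with an adjusted p under 0.05. Others were named outside this rule, among them synthetases, some cell markers, targets below 1 FPKM and genes that overlap a member. Some genes of the lists are counted but not reported by name here. Alternatives were another pseudocount, other filters, scalings and thresholds, voom on recovered reads, no trend in the variance, a replicate block, removal of length and GC trends, and leaving out each library.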

Additional observations from a re-analysis of the deposited data

How the results depend on the processing

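Among the 10 genes, *Asns* and *Phgdh* moved by more than the spread between replicates under some alternative. *Asns* went to a log2 fold change of 0.98 with a pseudocount of 0.1, 1.01 with voom on the recovered reads and 0.88 with length and GC trends removed, and *Phgdh* to 0.10 under quantile normalization. With a pseudocount of 0.1, *Chac1* and *Trib3* went from 0.10 to 0.23 and *Sesn2* from 0.27 to 0.35, within their spread. Leaving out 1 library at a time gave ranges of 0.90 to 0.95 for *Asns*, 0.17 to 0.22 for *Psat1*, 0.14 to 0.17 for *Phgdh*, 0.10 to 0.14 for *Shmt2*, 0.21 to 0.35 for *Sesn2*, -0.038 to 0.037 for *Atf4*, -0.11 to -0.023 for *Atf5*, -0.33 to -0.17 for *Ddit3*, -0.037 to 0.23 for *Chac1*, 0.02 to 0.21 for *Trib3* and -0.31 to -0.22 for *Myh9*. The sign of *Atf4* and *Chac1* thus depends on the library left out. With length and GC trends removed, *Myh9* went from -0.26 to -0.14, a move beyond its replicate SD of 0.064, and was still called lower. *Asns*, *Psat1* and *Phgdh* were called higher in every alternative that used an adjusted p. *Shmt2* was not called under quantile normalization or without control library 2. *Sesn2* was called higher under quantile normalization, voom, the replicate block, length and GC correction and without control library 1, and *Ddit3* lower under length and GC correction (log2 fold change -0.32) and without cKO library 1. Leaving out 1 library gave 1784 to 2043 higher and 1758 to 2065 lower among all genes, and 48 to 53 higher and 48 to 53 lower among the pathway genes outside the 10. At more than 2-fold on log2(FPKM + 1) with an unadjusted p under 0.05, all genes gave 165 higher and 81 lower. Pathway genes gave 0 higher and 2 lower, and *Myh9* (log2 fold change -0.26) did not pass. This limit admits far fewer genes by its construction, and the added 1 FPKM lowers the fold of low genes further. *Slc1a4*, for example, had a mean ratio of 2.2 but a log2 fold change of 0.58 on this scale. In the other alternatives the pathway genes gave 55 to 74 higher and 49 to 63 lower. With a mean of at least 5 FPKM, 3 glutathione genes were higher instead of 5, 3 sestrin and GATOR genes higher instead of 5 and 1 lower instead of 3, and 0 ATF6 and XBP1 genes higher instead of 1. Without a filter *Cebpg*, *Mthfd2*, *Nupr1* and *Castor1* were not called and 3 sestrin and GATOR genes were higher, and with voom 4 one-carbon genes were lower instead of 2. Control and cKO libraries with the same replicate number did not deviate together (r of -0.0262 to -0.00459). This gave no sign of pairing by number, but cannot settle whether samples were paired. A replicate block called 1 gene of the bZIP list higher instead of 0. It gave 2063 higher and 2044 lower among all genes. Among pathway genes it gave 60 and 54, of which 58 and 54 were also called without the block. Read numbers limit *Trib3* and *Chac1*, with 8 to 35 reads a library.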

Other observations

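Heat shock genes, which answer to misfolded protein outside the endoplasmic reticulum, moved both ways. In *Myh9*-deficient LSKs 3 of 12 tested were higher and 4 lower. The mitochondrial chaperonin genes *Hspd1* (218 ± 5.5 against 256 ± 0.632 FPKM, log2 fold change 0.23, adjusted p = 7.52e-04 by limma) and *Hspe1* (229.6 ± 9.72 against 284 ± 18.7 FPKM, 0.30, adjusted p = 0.00539) rose, as did the cochaperone gene *Dnaja1* (0.21, adjusted p = 0.00116). The inducible *Hspa1b* fell from 7.7, 7.51 and 7.99 to 0.571, 0.744 and 0.652 FPKM (-2.40, adjusted p = 3.53e-06). *Hspa1a* (-1.11, adjusted p = 3.15e-04) and *Dnajb1* (-0.42, adjusted p = 1.30e-04) fell with it, and since *Hspa1a* and *Hspa1b* are near-identical copies, their separate values are uncertain.

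Of 12 p53 target genes tested, 4 were higher and 3 lower. The inhibitor of AKT *Phlda3* rose from 3.33 ± 0.0442 to 7.29 ± 0.375 FPKM (0.94, adjusted p = 3.85e-05), the pro-apoptotic *Bax* from 50.7 ± 2.41 to 68.0 ± 6.02 FPKM (0.42, adjusted p = 0.00354) and *Aen* from 11.1 to 15.2 FPKM (0.41, adjusted p = 1.44e-04). *Pmaip1* (NOXA) fell from 8.06 ± 0.131 to 4.33 ± 0.218 FPKM (-0.76, adjusted p = 6.57e-05) and *Cdkn1a* (p21) from 13.1 ± 1.33 to 8.64 ± 0.69 FPKM (-0.55, adjusted p = 0.00265). *Bbc3* (PUMA), which CHOP as well as p53 can induce, fell from 9.34 ± 0.459 to 7.58 ± 0.614 FPKM (-0.27, adjusted p = 0.016), a call lost without control library 1. Both lists were written with earlier results of these data known.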
